A study of Mus musculus with 8 samples.

Results

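The genes of the constitutive proteasome were followed in beta cell samples of C57BL/6 mice given chow as the control diet, or a high-fat diet. Both diets had 4 biological replicates, with 1 Agilent mouse array for each, labelled with Cy3 alone. The members are the genes that the array names Psma, Psmb, Psmc, Psmd, Psme, Psmf or Psmg with a number, without the inducible subunits Psmb8, Psmb9 and Psmb10, where a probe was well above background on at least 4 of the 8 arrays. The names covered 55 probes of 44 genes, and 53 probes of 42 genes passed, of 26076 probes and 19993 genes that passed on the whole array. The 42 genes are 14 of the core particle, 20 of the regulatory particle, 4 activators or inhibitors and 4 assembly chaperones. Psma8 and Psmb11, the alpha and beta subunits known from testis and thymus, were well above background on 0 arrays, and Psme2 was not analysed here. The labels give no age, sex, diet composition or time on the diet, and do not say whether a replicate was 1 animal or a pool.

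The proteasome is the protease that degrades proteins tagged with ubiquitin. Its core is a barrel of alpha rings, which gate the entry, and beta rings, which hold the catalytic sites. The regulatory particle caps the barrel: its ATPases unfold the substrate, and its non-ATPase subunits bind and remove ubiquitin. Beta cells, which make large amounts of proinsulin, use the proteasome to dispose of misfolded secretory protein, and the subunits are known to be expressed in a coordinated way under the transcription factor Nfe2l1, which binds antioxidant response elements.

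Sequences of the catalytic beta subunits are shown first, because Psmb5 and Psmb6 had the largest diet differences of the core and because inducible forms can replace them. Of the probes for Psmb5, the chymotrypsin-like subunit, the one below comes from a stretch that its inducible counterpart Psmb8 shares in part. The other Psmb5 probe, whose values are given throughout, lies at chr14:55232957-55233016 and shares 21 of 57 aligned bases with the Psmb8 probe. The 60-base probes, from the array design with positions on mm9, are chr14:55233161-55233220 for Psmb5 and chr17:34337771-34337830 for Psmb8. Read 5′ to 3′, capitals mark the 31 identical bases among 50 positions in the ungapped alignment.
Psmb5 probe: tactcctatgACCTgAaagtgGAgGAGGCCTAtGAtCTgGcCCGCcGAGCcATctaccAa
Psmb8 probe: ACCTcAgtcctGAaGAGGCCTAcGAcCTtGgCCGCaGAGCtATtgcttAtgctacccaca

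The promoters of Psmb5 and of Psmb6, the caspase-like subunit, each held the core of the antioxidant response element, TGACNNNGC, shown in capitals in the 100 bases before the start. The windows are RefSeq's on GRCm38.p6, chr14:54617996-54618095 on the minus strand for Psmb5 and chr11:70525257-70525356 on the plus strand for Psmb6, read 5′ to 3′ along the gene.
Psmb5 promoter: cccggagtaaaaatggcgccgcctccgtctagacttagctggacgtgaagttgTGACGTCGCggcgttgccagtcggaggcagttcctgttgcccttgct
Psmb6 promoter: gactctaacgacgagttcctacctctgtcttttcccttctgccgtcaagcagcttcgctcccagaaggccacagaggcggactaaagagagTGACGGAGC

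In the full windows, from 250 bases before to 50 after the start, 35 of the 42 genes had a sequence, in 37 windows. On either strand TGACNNNGC lay in 6 of the 37 windows (16.2%), against 12.4% of all 32851 promoter windows of the table. The genes were Psmb5, Psmb6, Psmc6, Psmd12, Psmd9 and Psme4. CCAAT, a common promoter element bound by NF-Y, lay in 12 of the 37 windows (32.4%), against 37.4% of all windows. Among the 11 core genes with a window, 6 held CCAAT (Psma1, Psma2, Psma3, Psma6, Psma7 and Psmb3). No window of a member held both motifs, and a match is a string in a window, not a bound site.

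Each array carried 43020 non-control spots, of which 63.6% to 68.6% were well above background. Of the 53 member probes, 52 were well above background on all 8 arrays. The exception was the probe of Psma1, whose spots on control replicate 1 and high-fat replicate 2 were marked as outliers, so its fit used 3 arrays per diet. The beta cell markers Ins1, Ins2, Iapp, Pdx1, Mafa, Slc2a2 and Ucn3 were well above background on all arrays, but so were all 5 alpha cell, all 5 delta and PP cell and all 5 measured acinar markers, so transcripts of other pancreatic cells were present in the samples. On every array the log2 of the summed acinar markers lay above that of the summed beta cell markers. The values were 9.70 against 9.37 in control replicate 1 and 9.96 against 9.52 in high-fat replicate 3. Acinar marker signal was thus high on every array, but sums over different probes give shares neither of RNA nor of cells. In such bulk samples fewer cells of a type and less RNA per cell cannot be told apart. The arrays lay on 2 slides, each with 2 arrays of each diet. On both slides control arrays held positions 1 and 3 and high-fat arrays positions 2 and 4, so position and diet cannot be told apart. On the array of high-fat replicate 2, 7 spots sit in a bright smear whose local background reached 261989 intensity units. High-fat replicate 2 also gave the highest value of 22 of the 41 members measured on all arrays. A link between the smear and those values was not tested.

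The comparison asks whether feeding a high-fat diet went with other levels of proteasome transcripts than chow. All values are log2 levels of a probe relative to the 75th percentile of its array, and differences are high-fat minus control with the SE of the limma fit. None of the 42 genes passed limma's test at an adjusted p under 0.05, and 0 did so at an unadjusted p under 0.05. The background over all 19993 genes was 0.0% at an adjusted p under 0.05 and 5.86% at an unadjusted p under 0.05. In 0 of the 42 genes were the diets without overlap, against 3.45% of all genes. The smallest unadjusted p was 0.158 (Psmd8), and limma's adjusted p ranged from 0.920 to 0.994. Differences ranged from −0.17 (Psmg4) to 0.18 (Psmb5). For 40 of the 42 genes the 95% confidence interval lay within 0.5 of 0 on the log2 scale, and the outermost bounds were −0.56 (Psmg4) and 0.56 (Psme3).

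**Figure D1:**
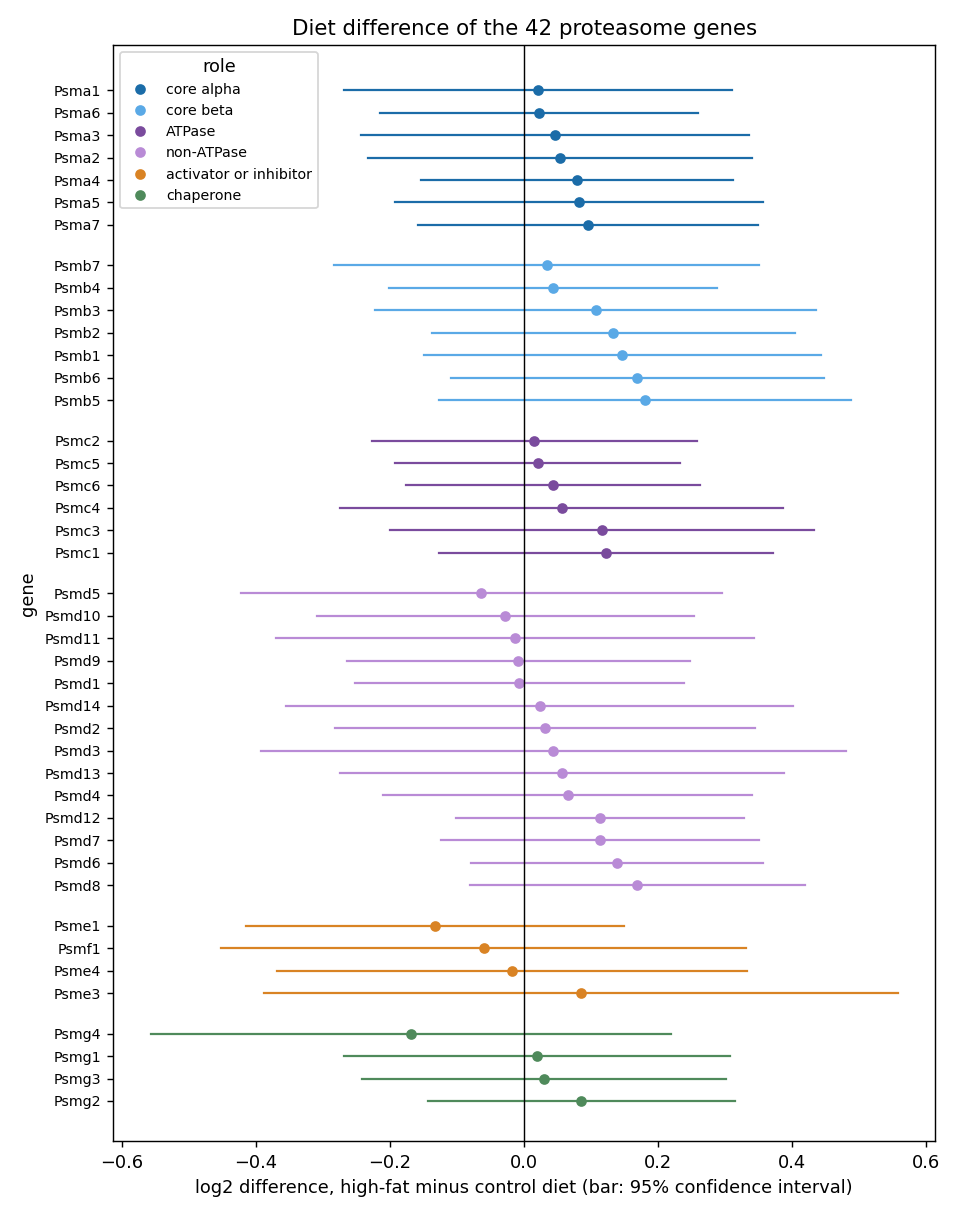
Log2 difference between high-fat and control diet (x axis) for each of the 42 proteasome genes (y axis), grouped and coloured by role, with points for the limma estimate and bars for the 95% confidence interval. All intervals cross 0; the 14 core genes all lie to the right of 0, by at most 0.18, which held for 9 of 14 with quantile normalization or the deposited values and for 2 of 14 under normexp.

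By sign alone, 33 of the 42 genes lay above 0, against 50.2% of all genes, with a median difference of 0.045 against 0.00093 over all genes. The sign of a difference went with the brightness of the probe over the whole array. Of the brightest 25% of all genes 67.8% lay above 0, with a median of 0.068, against 41.1% and −0.045 in the second dimmest 25%. The proteasome genes were bright: 27 of the 42 fell in the brightest 25%, where 25 lay above 0 with a median of 0.057, below the median of all genes there. A further 12 fell in the next 25%, where 7 lay above 0 with a median of 0.027 against −0.0097 for all its genes, and 3 fell in the second dimmest.

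Among the catalytic beta subunits Psmb5 and Psmb6 had the largest differences of the core, and Psmb7 one of the smallest. Psmb5 measured 5.04, 5.30, 5.20 and 5.08 in control replicates 1 to 4 and 5.23, 5.62, 5.11 and 5.38 in high-fat replicates 1 to 4. High-fat replicates 2 and 4 lay above every control array, while replicates 1 and 3 lay within the control range. The means were 5.16 ± 0.12 and 5.34 ± 0.22 (SD, n = 4 per diet), a difference of 0.18 ± 0.13, or 1.13-fold, with a limma adjusted p of 0.923. It was 0.086 without high-fat replicate 2. Its other probe gave 0.20.

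The probe of Psmb6 lies at chr11:70341093-70341152 on mm9. Psmb6 measured 4.70, 4.88, 4.91 and 4.81 in the control samples and 4.73, 5.14, 4.99 and 5.12 in the high-fat samples. High-fat replicates 2, 3 and 4 exceeded all controls and replicate 1 lay among the lowest. The difference was 0.17 ± 0.12, with a limma adjusted p of 0.923. Psmb7, the trypsin-like subunit, measured 1.64, 1.82, 1.34 and 1.37 on the control diet and 1.50, 1.76, 1.53 and 1.51 on the high-fat diet. Here the controls enclosed all high-fat samples, and the controls of slide 1 lay above those of slide 2. The difference was 0.034 ± 0.14.

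All 14 core genes lay above 0, but 9 of 14 did with quantile normalization, 9 of 14 in the deposited values and 2 of 14 under normexp background correction, with core medians of 0.012, 0.0081 and −0.30. The 7 beta genes had a median of 0.13 and the 7 alpha genes a median of 0.054. Of the beta subunits without catalytic activity, Psmb1 differed by 0.15 ± 0.13, Psmb2 by 0.13 ± 0.12, Psmb3 by 0.11 ± 0.14 and Psmb4 by 0.043 ± 0.11. The alpha subunits, which form the outer rings, ranged from 0.022 ± 0.12 (Psma1) and 0.023 ± 0.10 (Psma6) to 0.083 ± 0.12 (Psma5) and 0.096 ± 0.11 (Psma7). Psma2, Psma3 and Psma4 lay between, at 0.054, 0.046 and 0.080. The 95% confidence interval of each of the 14 included 0.

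The 20 regulatory genes had a median difference of 0.044, and 15 lay above 0. All 6 ATPases did so, from 0.016 ± 0.11 (Psmc2) and 0.021 ± 0.092 (Psmc5) to 0.12 ± 0.14 (Psmc3) and 0.12 ± 0.11 (Psmc1). Psmc1 measured 4.34, 4.56, 4.51 and 4.32 on the control diet and 4.47, 4.72, 4.46 and 4.57 on the high-fat diet, with 2 of the high-fat samples above all controls. Psmc4 and Psmc6 differed by 0.057 and 0.044.

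Of the 14 non-ATPases 9 lay above 0. Psmd8, a lid subunit, had the smallest p of all members. It measured 1.50, 1.68, 1.41 and 1.43 in the control samples and 1.56, 1.82, 1.61 and 1.71 in the high-fat samples, and only control replicate 2 reached into the high-fat range. Its difference was 0.17 ± 0.11, with a limma adjusted p of 0.920. Psmd6, also of the lid, measured 2.46, 2.55, 2.29 and 2.44 against 2.51, 2.60, 2.60 and 2.58, again with control replicate 2 alone inside the high-fat range, and differed by 0.14 ± 0.095.

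The ubiquitin receptor Psmd4 differed by 0.065 ± 0.12. Psmd14, the deubiquitinase that releases ubiquitin from the substrate, measured 0.31, 0.68, −0.03 and 0.40 on the control diet and 0.11, 0.47, 0.43 and 0.44 on the high-fat diet, a difference of 0.024 ± 0.17. The controls spread over a wider range than the high-fat samples. Psmd7 and Psmd12 both differed by 0.11, Psmd13 by 0.057, Psmd3 by 0.044 and Psmd2 by 0.032. Below 0 lay Psmd1 at −0.0065 and Psmd11 at −0.013, and the proteins that carry the Psmd name but act as assembly chaperones of the ATPase ring: Psmd5 at −0.063 ± 0.16, Psmd10 at −0.027 ± 0.12 and Psmd9 at −0.0080 ± 0.11. Without those 3, 15 of 17 regulatory genes lay above 0, with a median of 0.057.

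The core was set against the regulatory particle within each array, as the mean deviation of the 13 core genes measured on all arrays minus that of the 20 regulatory genes. It was −0.062, −0.070, 0.079 and −0.029 in control replicates 1 to 4 and −0.028, 0.033, 0.014 and 0.064 in high-fat replicates 1 to 4. The highest of all was a control array, so the diets overlapped. The means were −0.021 ± 0.069 and 0.021 ± 0.039 (SD, n = 4 per diet), a difference of 0.041 between the diets that was smaller than the SD of the control samples. It was 0.068 on slide 1 and 0.014 on slide 2. Without Psmd5, Psmd9 and Psmd10 it was 0.026. Beta minus alpha subunits differed by 0.053 and ATPases minus non-ATPases by 0.017, both with overlapping diets.

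**Figure D2:**
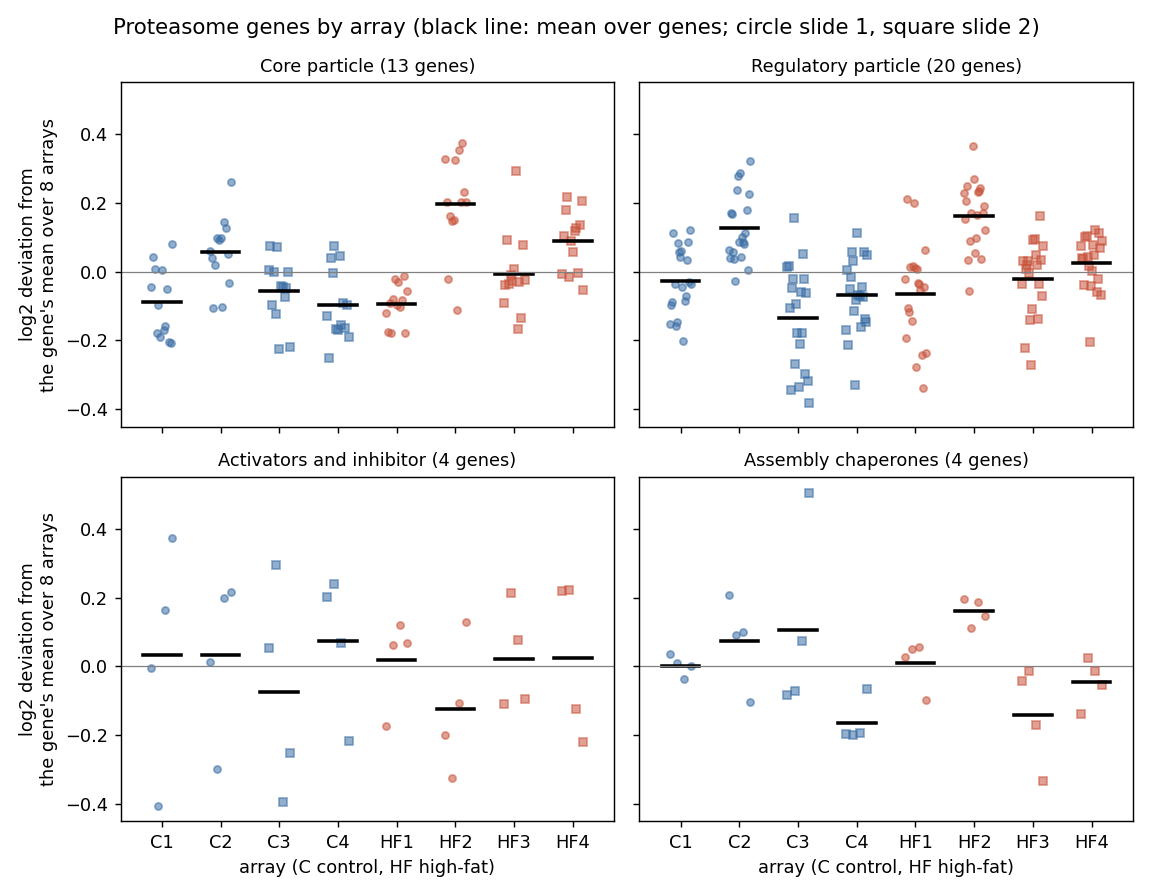
Log2 deviation of each gene from its own mean over the 8 arrays (y axis) in each array (x axis: C1 to C4 control, HF1 to HF4 high-fat), in 1 panel per role, with a point per gene and a black line for the mean over genes; circles are slide 1 and squares slide 2. High-fat replicate 2 has the highest mean of the core (0.20) and of the regulatory particle (0.16), while the other arrays of both diets overlap.

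Arrays of the same diet differed among themselves. The mean deviation of the core was −0.090, 0.058, −0.055 and −0.097 in control replicates 1 to 4 and −0.095, 0.20, −0.0067 and 0.089 in high-fat replicates 1 to 4. For the regulatory particle it was −0.027, 0.13, −0.13 and −0.068 against −0.066, 0.16, −0.021 and 0.025. High-fat replicate 2 was the highest array for 22 of the 41 genes measured on all arrays, and control replicate 2 for 8. Without high-fat replicate 2, 21 of the 42 genes lay above 0, with 9 of 14 in the core and 9 of 20 in the regulatory particle, and the median was −0.0049. Of all genes 51.8% then lay above 0, with a median of 0.0088. Over the settings that leave out 1 array each, the members' median ranged from −0.0049 to 0.098, and the number of members above 0 from 21 to 38. Both maxima came without control replicate 2, where 46.1% of all genes lay above 0.

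On slide 1 alone 26 of the 42 genes lay above 0, with a median of 0.046, against 54.0% of all genes, with a median of 0.028. On slide 2 alone 35 of the 42 did, with a median of 0.096, against 42.3% of all genes, with a median of −0.046. Above 0 on both slides were 20 of the 42 (47.6%), against 24.3% of all genes: 10 of 14 core genes and 9 of 20 regulatory genes. The same sign on both slides, in either direction, was found for 21 of the 42, against 10402 of the 19866 genes without a missing value. By that count the members agreed between slides no more than other genes. For 0 of the 42 genes did the diet difference vary between slides at an unadjusted p under 0.05 in limma's interaction test, against 6.86% of all genes. Between the slides themselves 0 members differed at an adjusted p under 0.05, against 3.4% of all genes, and 30 of the 42 had lower values on slide 2, against 45.9% of all genes.

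The members varied little from array to array. The median residual SD of a member was 0.15, against 0.25 over all genes, and the medians of all genes, in 4 groups by brightness, fell from 0.47 in the dimmest to 0.17 in the brightest. The core had 0.15 and the regulatory particle 0.14. For Psme1, whose probe is printed 10 times on each array, the SD over the 8 to 10 spots used was between 0.038 and 0.089, against a residual SD between arrays of 0.15.

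The sign of many members changed with the scaling. With median scaling 40 of the 42 lay above 0, but so did 64.4% of all genes, whose median shifted to 0.074; the members' median was 0.12. With quantile normalization 22 of 42 lay above 0, with a median of 0.0075, against 51.1% of all genes. In the authors' deposited table of values the count was 21 of 42, with a median of 0.00025, against 50.6% of all genes. Under normexp background correction 5 of 42 lay above 0, against 58.8% of all genes, with a median of −0.29 against 0.13 for all genes. Without the smeared spots 33 of 42 did again, against 58.4% of all genes, with a median of 0.028 that equalled that of all genes. In every one of these settings 0 members passed at an adjusted p under 0.05. At an unadjusted p under 0.05 the deposited values gave 2 members, Psmd8 at 0.16 ± 0.061 and Psme1 at −0.21 ± 0.088, both with limma adjusted p over 0.9 (0.930 and 0.953).

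**Figure D3:**
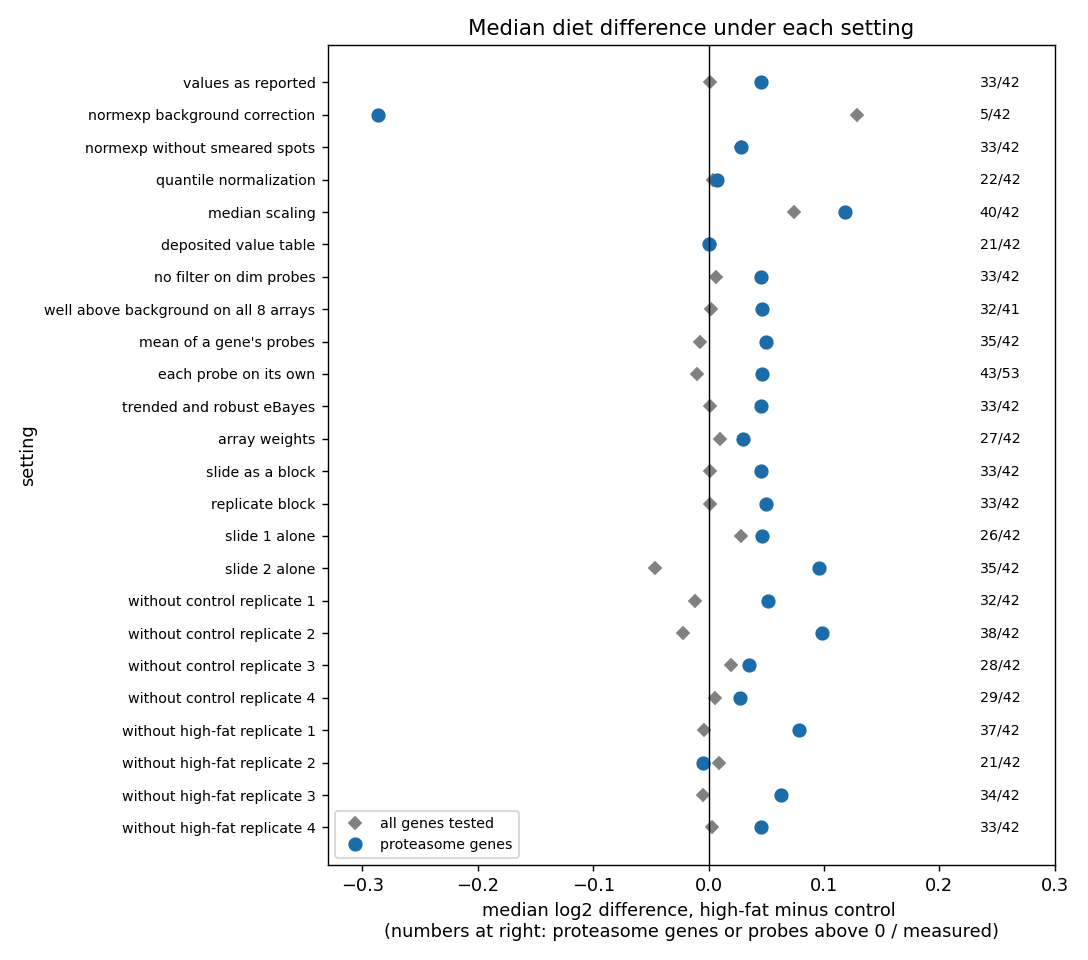
Median log2 difference, high-fat minus control (x axis), of the proteasome genes (circles) and of all genes tested (diamonds) under each setting (y axis), with the number of proteasome genes or probes above 0 at the right. Circles lie between −0.29 and 0.12, and leaving out high-fat replicate 2, quantile normalization and the deposited values bring them near 0.

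Of the 11 members with more than 1 probe, 9 had probes of the same sign. The probes of Psmd10 gave −0.027 and 0.21 and those of Psmd9 gave −0.0080 and 0.043. Over all 53 probes, 43 lay above 0.

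Of the 4 genes of alternative activators and the inhibitor, 1 lay above 0, with a median of −0.039. Psme1, a subunit of the interferon-inducible activator of the core, measured 2.44, 2.45, 2.49 and 2.64 on the control diet and 2.27, 2.24, 2.33 and 2.66 on the high-fat diet. High-fat replicates 1, 2 and 3 lay below all controls and replicate 4 above them all, and the difference was −0.13 ± 0.12 with a limma adjusted p of 0.934. Psme4, the large nuclear activator, differed by −0.018 ± 0.15 and Psmf1, an inhibitor of the core in vitro, by −0.060 ± 0.17.

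Psme3, the nuclear activator related to Psme1, measured 0.50, 0.61, 1.21 and 1.15 on the control diet and 0.97, 0.59, 1.12 and 1.13 on the high-fat diet. The control arrays of slide 2 lay above those of slide 1, and the difference was 0.085 ± 0.21. Among the chaperones that pair up alpha subunits, Psmg1, Psmg2 and Psmg3 differed by 0.020 ± 0.13, 0.086 ± 0.10 and 0.030 ± 0.12. Psmg4 measured −0.75, −0.85, −0.24 and −0.82 against −0.85, −0.60, −1.08 and −0.80, a difference of −0.17 ± 0.17 in which control replicate 3 was the highest array and high-fat replicate 3 the lowest.

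Other genes of the pathway were counted by list. Of 9 measured assembly factors, which include Psmg1 to Psmg4 and Psmd5, Psmd9 and Psmd10, 5 lay above 0 with a median of 0.0079, and Pomp, the maturation factor of the core, differed by 0.12 ± 0.13. Of 15 proteasome-associated enzymes and receptors 9 lay above 0 with a median of 0.015, and the ubiquitin receptor Adrm1 differed by 0.096 ± 0.097. Of 6 genes of transcriptional control 1 lay above 0, with a median of −0.090, and Nfe2l1 itself differed by −0.20 ± 0.19. Of 5 ubiquitin and ubiquitin-activating genes 4 lay above 0, with a median of 0.15, and Ubb, which encodes ubiquitin, differed by 0.091 ± 0.13. In these 4 lists 0 genes passed limma's test at an adjusted or an unadjusted p under 0.05.

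In 2 of the 35 genes of these lists (5.71%), singled out after their values were seen, the diets did not overlap, against 3.45% of all genes. Uchl5, the deubiquitinase that Adrm1 recruits, measured 0.75, 1.09, 1.13 and 0.95 on the control diet and 1.20, 1.28, 1.13 and 1.30 on the high-fat diet, so that replicate 3 of both diets came to the same rounded value. Its difference was 0.25 ± 0.11, with an unadjusted p of 0.0603 and a limma adjusted p of 0.842 (0.491 to 1.00 over the alternatives). Uba1, the main ubiquitin-activating enzyme, differed by 0.21 ± 0.11 over 7 arrays, with a limma adjusted p of 0.871, and by 0.10 as the mean of its probes.

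The inducible subunits, which interferon brings into newly made proteasomes, were set beside the constitutive ones that they replace. Psmb9, which takes the place of Psmb6 in the immunoproteasome, measured 0.91, 1.06, 1.07 and 0.67 on the control diet and 0.24, 0.53, −0.03 and 0.40 on the high-fat diet, without overlap. Its probe lies at chr17:34319174-34319233 on mm9. The difference was −0.64 ± 0.15, with an unadjusted p of 0.0029 and a limma adjusted p of 0.519. It was −0.60 on slide 1 and −0.69 on slide 2. Over 22 alternatives it ranged from −0.73 to −0.45, at an unadjusted p under 0.05 in all 22 and an adjusted p of 0.308 to 1.00.

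Psmb8, which replaces Psmb5, measured 1.06, 1.07, 0.78 and 0.73 against 0.05, 0.67, 0.01 and 0.75, where high-fat replicates 2 and 4 lay close to the controls of slide 2. The difference was −0.54 ± 0.20, with an unadjusted p under 0.05 and a limma adjusted p of 0.791. Over 22 alternatives the difference of Psmb8 ranged from −0.71 to −0.37, at an unadjusted p under 0.05 in 16 and with a smallest adjusted p of 0.452. Psmb10, which replaces Psmb7, had no common direction: 3.14, 3.66, 4.55 and 3.55 on the control diet and 4.55, 4.01, 3.02 and 3.40 on the high-fat diet, with slide differences of 0.88 and −0.84. The mean of the 3 inducible minus that of the 3 catalytic constitutive genes was 0.15, 0.18, 0.56 and 0.14 in the control samples. In the high-fat samples this score was 0.035, −0.19, −0.63 and −0.24, so the diets did not overlap. The score differed by −0.51 between the diets (slide 1: −0.24, slide 2: −0.79). Psmb10, with its opposite signs, is part of the score, whereas Psmb8 (slide 1: −0.71, slide 2: −0.37) and Psmb9 lay below 0 on both slides. Psmb10 also resembled the acinar markers, whose mean deviation was −0.74, −0.085, 0.50 and −0.048 in control replicates 1 to 4. In high-fat replicates 1 to 4 that deviation was 0.53, 0.22, −0.34 and −0.035. The part of acinar signal in the score was not tested.

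**Figure D4:**
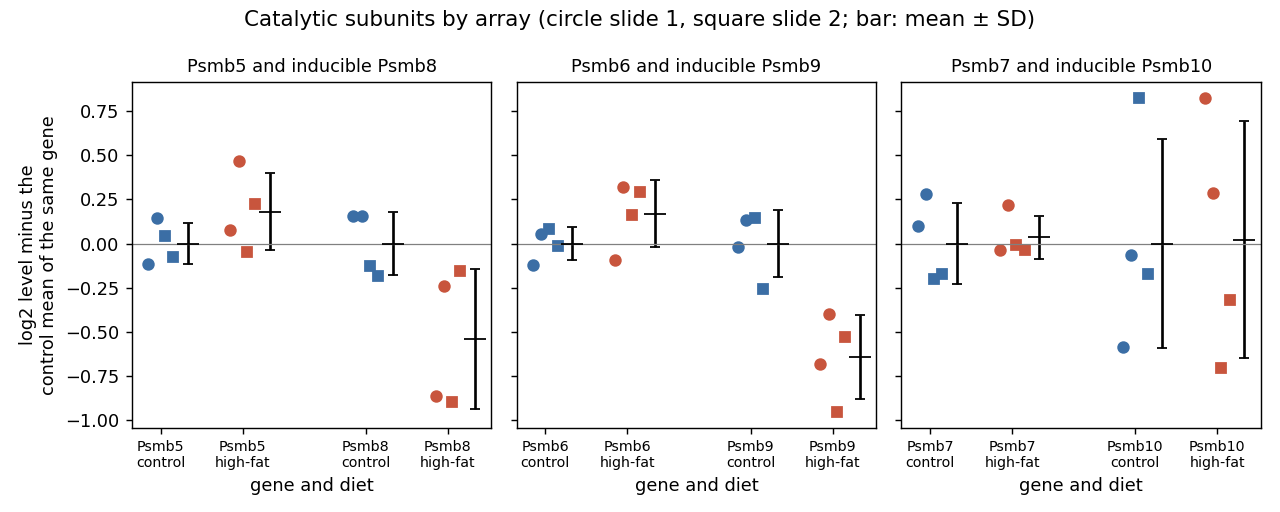
Log2 level of each catalytic subunit and its inducible counterpart, minus the control mean of the same gene (y axis), by gene and diet (x axis), with a point per array (circle slide 1, square slide 2) and bars for mean ± SD (n = 4). For Psmb9 all high-fat samples lie below all controls. For the other inducible subunits, Psmb8 and Psmb10, and for Psmb5, Psmb6 and Psmb7 the diets overlap.

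Immune cells are rich in inducible subunits, so their markers are given beside them. Of the 6 lymphocyte markers 5 lay below 0, with a median of −1.01, and of the 5 macrophage markers 4, with a median of −0.37, and 0 of these 11 passed limma's test at an unadjusted p under 0.05. The log2 of the summed macrophage markers was 2.63 to 3.54 in the control and 2.23 to 2.96 in the high-fat samples. That of the lymphocyte markers was 2.81 to 3.39 and 2.44 to 3.57, where the sum is carried by Cd3e, the marker above 0 at 0.20. No marker of either list was without a value, and 4 of the 6 lymphocyte markers were well above background on all arrays. Their part in the difference of Psmb9 was not tested.

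Markers of other endocrine cells had values below 0 as well. All 5 alpha cell markers lay below 0, with a median of −0.97 and 4 past an unadjusted p of 0.05, and so did all 5 delta and PP cell markers, with a median of −0.44 and again 4 past an unadjusted p of 0.05. In 3 of the 5 markers of each list the diets did not overlap, against 3.45% of all genes. The mean deviation of the alpha cell markers was 0.12 to 0.73 in the control and −0.71 to −0.11 in the high-fat samples. That of the delta and PP cell markers was 0.076 to 0.37 and −0.37 to −0.061. The log2 sums, which weigh the brightest markers most, did overlap between the diets. For alpha cell markers they were 7.69 to 8.17 in the control and 7.55 to 8.10 in the high-fat samples. For delta and PP cell markers they were 8.14 to 8.46 and 7.82 to 8.15. Of the 7 beta cell markers 4 lay above 0, with a median of 0.028, and 1 was lower at limma's unadjusted p under 0.05. The beta cell median was −0.013 on slide 1 and −0.32 on slide 2. Acinar markers had a median of 0.57 on slide 1 and −0.36 on slide 2. Their part in the proteasome genes' differences was not tested.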

How the data were processed

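The authors' scanner files hold spot intensity from Agilent Feature Extraction 11.5.1.1 on mm9, per the file headers. Per the labels' protocols, RNA was extracted with Trizol and 50 ng was labelled. The deposited table is in log2 units, for which the submitters' processing notes name limma without settings; it served as an alternative. The processed signal was put on the log2 scale, each array's 75th percentile was subtracted, control and outlier spots were left out, and spots of a probe were averaged. A probe needed 4 of 8 arrays well above background and 2 values per diet; a gene took its brightest probe by mean. Diets were compared with limma 3.58.1 in R 4.3.3 (lmFit, eBayes), adjusted by Benjamini-Hochberg over all genes at 0.05, and the fit was tested on simulated data. Array means over genes carry no test. P-values measure the spread between the labels' biological replicates, and the number of arrays limits precision.

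Named genes are the 2 highest and 2 lowest of each role group (all where there were 4), Psmb5, Psmb6, Psmb7, Psmd4, Psmd14, members with an outlying array or probes of opposite sign, and Psmb8, Psmb9, Psmb10, Pomp, Adrm1, Nfe2l1 and Ubb; further members are given by value. Members and lists were chosen with earlier results of these data known, and 1 listed gene is not reported here. Alternatives were normexp (offset 50) with and without smeared spots, quantile and median scaling, the deposited table, other probe filters and probe choices, robust eBayes, array weights, slide and replicate blocks, each slide alone, and leaving out each array. Python 3.11.15 was used with numpy 2.4.6, pandas 2.3.3 and matplotlib 3.10.9.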

Additional observations from a re-analysis of the deposited data

Results flagged for a closer look

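Some samples lay far from the other 3 of their diet, by a test of the gap over the range that marks about 1 in 20 groups by chance. Among the 42 members 4 such samples were found in 84 groups. Psma5 was lowest in control replicate 1, at 2.35. Psma3 was lowest in control replicate 4, at 3.71. Psmb7 was highest among the high-fat samples in replicate 2, at 1.76. Psmd14 was lowest among the high-fat samples in replicate 1, at 0.11. Outside the members, Adrm1 was lowest in control replicate 2, at 1.29.

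Among the means over genes, control replicate 2 stood above the other controls for the core beta genes, with a mean deviation of 0.079, and for the ATPases, with 0.089. High-fat replicate 2 stood below the other high-fat samples for the activators and inhibitor, with −0.13. For the inducible minus the catalytic constitutive genes, control replicate 3 stood above the other controls, at 0.56.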

How the results depend on the processing

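Over the 22 alternatives fitted by gene 0 members passed limma's adjusted threshold, with adjusted p from 0.471 to 1.00. At an unadjusted p under 0.05 the count was 0 except for 2 with the deposited values and 1 (Psmb6) without high-fat replicate 1, so that leaving out 1 sample gave 0 to 1. Normexp background correction moved the median of the members to −0.29 and the mean of the core to −0.27. It moved the mean of the regulatory particle to −0.25 and core minus regulatory particle to −0.017. The smear on 1 array was part of that fit. Without the smeared spots, a step chosen after earlier results had been seen, these 4 values had the sign of the main results again. The median of the members was then 0.028, that of the core 0.066 and that of the regulatory particle 0.026. The medians and counts under quantile normalization, median scaling and the deposited table are given with the results. Leaving out each sample in turn gave 0.042 to 0.14 for the mean of the core, 0.0049 to 0.10 for the regulatory particle and 0.025 to 0.074 for core minus regulatory particle. With the replicate block the median was 0.050 and 33 of 42 genes lay above 0. Deviations of same-numbered samples correlated at 0.21, 0.40, −0.0041 and 0.30, and 6 of 8 samples correlated best with their own number, but replicate 3 had no positive correlation and the labels state no pairing, so whether the numbers pair the samples was not settled and the fit without the block was kept. The block moved no count of members past a threshold.

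Differences near 0 changed sign often, and under normexp the largest differences of the core, Psmb5 and Psmb6, did so too. The cause was not tested except where the smear is named. Of 37 named genes, 30 turned under normexp: Psma6 −0.34, Psma5 −0.31, Psma7 −0.41, Psmb7 −0.29, Psmb4 −0.41, Psmb6 −0.27, Psmb5 −0.23, Psmc2 −0.40, Psmc5 −0.37, Psmc3 −0.38, Psmc1 −0.35, Psmd10 0.0071, Psmd6 −0.27, Psmd8 −0.16, Psmf1 0.078, Psme3 −0.042, Psmg1 −0.39, Psmg3 −0.13, Psmg2 −0.15, Psmd4 −0.44, Psmd14 −0.044, Psma3 −0.38, Psmd9 0.27, Psmb10 −0.40, Pomp −0.29, Adrm1 −0.14, Nfe2l1 0.054, Ubb −0.36, Uchl5 −0.0013, Uba1 −0.35. Without the smeared spots 5 did: Psmc5 −0.021, Psmd10 0.0077, Psmd4 −0.022, Psmd14 −0.024, Psmd9 0.040. With the deposited values 15 did: Psma6 −0.00025, Psma7 −0.050, Psmb4 −0.096, Psmc2 −0.041, Psmc5 −0.033, Psmc3 −0.079, Psmc1 −0.033, Psmd10 0.0095, Psmf1 0.00050, Psmg1 −0.021, Psmd4 −0.092, Psmd14 −0.015, Psma3 −0.056, Psmd9 0.030, Psmb10 −0.034. With quantile normalization 12 did: Psma1 −0.020, Psma6 −0.0014, Psmb4 −0.070, Psmc2 −0.083, Psmc5 −0.016, Psmc3 −0.018, Psmg1 −0.019, Psmd4 −0.014, Psma3 −0.056, Psmd9 0.047, Psmb10 −0.039, Ubb −0.0036. With median scaling 5 did: Psmd5 0.0096, Psmd10 0.046, Psmf1 0.013, Psme4 0.055, Psmd9 0.065. Array weights turned 5: Psma6 −0.0038, Psmb7 −0.0034, Psmg1 −0.0098, Psmd14 −0.010, Psmb10 −0.069. The mean of a gene's probes turned 2: Psmd10 0.094, Psmd9 0.018. Slide 1 alone turned 8: Psma1 −0.14, Psmb7 −0.098, Psmc5 −0.052, Psmg4 0.076, Psmg1 −0.0097, Psmd14 −0.20, Psma3 −0.029, Psmd9 0.086. Slide 2 alone turned 8: Psmd5 0.16, Psmd10 0.020, Psmf1 0.078, Psme4 0.14, Psme3 −0.050, Psmg3 −0.033, Psmb10 −0.84, Nfe2l1 0.0094.

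Leaving out each sample in turn spanned 0 for 18 named genes, with differences from −0.013 to 0.075 for Psma1, −0.023 to 0.059 for Psma6, −0.033 to 0.13 for Psmb7, −0.017 to 0.094 for Psmb4, −0.032 to 0.083 for Psmc2, −0.010 to 0.063 for Psmc5, −0.19 to 0.022 for Psmd5, −0.11 to 0.049 for Psmd10, −0.15 to 0.055 for Psmf1, −0.15 to 0.046 for Psme4, −0.036 to 0.21 for Psme3, −0.043 to 0.092 for Psmg1, −0.030 to 0.092 for Psmg3, −0.014 to 0.11 for Psmd4, −0.10 to 0.14 for Psmd14, −0.030 to 0.11 for Psma3, −0.088 to 0.037 for Psmd9, −0.25 to 0.30 for Psmb10. Without high-fat replicate 2 alone 11 turned. Of the genes that kept their sign, Psmb5 ranged from 0.086 (without high-fat replicate 2) to 0.26, Psmb6 from 0.12 to 0.26 (without high-fat replicate 1), Psmg4 from −0.25 to −0.028 (without control replicate 3), Nfe2l1 from −0.37 (without control replicate 3) to −0.11 and Pomp from 0.049 (without high-fat replicate 2) to 0.19.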
